A study of Mus musculus with 12 samples.

Results

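Fbxw7 is the F-box protein that chooses the targets of an SCF-type ubiquitin ligase. Described here are 10 genes listed as encoding known Fbxw7 substrates outside the Notch and AP-1 groups: Myc, Mycn, Ccne1, Ccne2, Mcl1, Klf5, Hif1a, Aurkaip1, Nfe2l1 and Mtor. The list takes genes by the protein they encode and sets no threshold on a measured value. They are 10 of 21631 protein-coding genes of RefSeq on chromosomes 1 to 19 and X. All 10 matched by symbol. The genome was profiled by Cut & Run, in which a nuclease tethered by an antibody frees the DNA around a chromatin mark for sequencing, in mouse embryonic fibroblasts (MEF). The groups were WT and fbxw7 KO cells, with antibodies against MLL4, H3K4me1 and H3K4me3 and 2 libraries for each antibody and genotype, 12 libraries in all. Both genotypes were grown in DMEM with serum and non-essential amino acids. Which bases of Fbxw7 the KO cells lack, how many clones or embryos they came from, and whether the libraries of a group are separate cultures are not given in the sources used here, so the spread between libraries may be technical.

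Fbxw7 binds proteins that carry a phosphorylated degron, often one primed by the kinase GSK3, and the SCF complex then marks them with ubiquitin for the proteasome. Its substrates drive growth and division: MYC and N-MYC are transcription factors, cyclin E activates CDK2 at the entry into S phase, MCL1 blocks apoptosis, and mTOR is the kinase of the growth-control complexes. Fbxw7 acts on these proteins and not on their genes, and the libraries hold no measure of protein. H3K4me3 is the histone mark of active promoters, H3K4me1 is common at enhancers, and MLL4, the product of Kmt2d, is a main enzyme for H3K4me1. The gene listed as Aurkaip1 encodes a partner of Aurora A kinase that also works in the mitochondrial ribosome. Aurora A itself, encoded by Aurka, is the kinase described as a substrate, and its gene is given with the partner genes.

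The H3K4me3 libraries held 11319701 and 6185767 fragments after duplicate filtering in WT and 5519477 and 5938102 in KO, so WT replicate 1 was the deepest. Peak lists were called per library at the same q cutoff, and the KO lists were shorter, with 10397 and 11281 H3K4me3 peaks against 17460 and 16078 in WT. Covered bases of H3K4me3 came to 22015248 and 17612637 in WT and 6247169 and 7250984 in KO. For H3K4me1, WT lists had 62065 and 56616 entries and KO lists 59908 and 53120, and the MLL4 lists had 40 to 69 peaks. The part of depth and of enrichment in these differences was not tested. Where a library lacks a peak, the site did not pass the cutoff there, which does not show that the mark was missing. Of 12 fibroblast markers, 12 had an H3K4me3 peak in at least 1 library, with 32972 and 24206 covered bases in sum in WT and 5605 and 5685 in KO. Among all 21631 protein-coding genes, 13276 had a peak in at least 1 library. Of the other markers, 1 of 4 epithelial (Epcam), 1 of 4 haematopoietic (Spi1), 1 of 4 endothelial (Kdr) and 0 of 4 pluripotency genes had one. Epcam had 363 bases in WT replicate 1 alone. Spi1 had 416 and 430 bases in WT and 0 in both KO libraries. Kdr had 1131 and 662 bases in WT, 247 in KO replicate 1 and 0 in KO replicate 2. With 2 libraries against 2, an exact two-sided permutation test cannot give a p under 0.333, so no difference between genotypes below is a significant one.

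Promoter sequences were at hand for 6 of the 10 genes (RefSeq, GRCm38.p6). All but that of Mcl1 are shown, with Nfe2l1 at 2 of its 5 listed starts. WT H3K4me3 peaks covered a listed start of Ccne1 and Nfe2l1 in both replicates, and of Mycn and Mcl1 in replicate 1 alone. The covered Nfe2l1 start, 96829502, is not among the 2 shown. The starts of Hif1a and Mtor were covered in no library, and KO peaks covered no listed start of the 6 genes. Each run is the 250 bases before a listed start, 5′ to 3′ on the strand of the gene. Capitals mark matches, on both strands, to 6 motifs: the E-box CACGTG, the hypoxia response core ACGTG (every E-box also holds it), the E2F motif TTTGGCGC or TTTCGCGC, the CCAAT box, the GC box GGGCGG, and the antioxidant response core TGACNNNGC. Matches that overlap run together.
Mycn, chr12:12941837-12942086, minus strand: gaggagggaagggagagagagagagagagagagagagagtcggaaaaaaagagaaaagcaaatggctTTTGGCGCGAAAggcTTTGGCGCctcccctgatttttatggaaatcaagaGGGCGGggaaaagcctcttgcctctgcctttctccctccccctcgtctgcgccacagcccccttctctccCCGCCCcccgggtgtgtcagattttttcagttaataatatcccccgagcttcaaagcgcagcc
Ccne1, chr7:38107491-38107740, minus strand: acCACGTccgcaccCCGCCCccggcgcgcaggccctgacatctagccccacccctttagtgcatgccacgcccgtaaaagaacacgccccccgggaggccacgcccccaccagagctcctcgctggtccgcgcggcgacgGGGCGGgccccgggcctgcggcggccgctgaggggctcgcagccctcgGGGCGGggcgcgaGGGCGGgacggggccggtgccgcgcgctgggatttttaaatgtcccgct
Hif1a, chr12:73907617-73907866, plus strand: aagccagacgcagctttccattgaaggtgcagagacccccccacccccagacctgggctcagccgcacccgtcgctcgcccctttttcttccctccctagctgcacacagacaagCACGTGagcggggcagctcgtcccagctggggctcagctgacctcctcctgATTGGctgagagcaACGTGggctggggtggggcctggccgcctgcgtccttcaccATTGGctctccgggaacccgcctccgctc
Nfe2l1 at its outermost start, chr11:96829969-96830218, minus strand: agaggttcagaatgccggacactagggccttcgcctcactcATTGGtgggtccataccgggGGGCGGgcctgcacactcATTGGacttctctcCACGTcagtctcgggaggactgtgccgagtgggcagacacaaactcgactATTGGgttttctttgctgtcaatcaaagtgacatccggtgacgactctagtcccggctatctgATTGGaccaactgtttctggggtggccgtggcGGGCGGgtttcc
Nfe2l1 at an internal start, chr11:96824128-96824377, minus strand: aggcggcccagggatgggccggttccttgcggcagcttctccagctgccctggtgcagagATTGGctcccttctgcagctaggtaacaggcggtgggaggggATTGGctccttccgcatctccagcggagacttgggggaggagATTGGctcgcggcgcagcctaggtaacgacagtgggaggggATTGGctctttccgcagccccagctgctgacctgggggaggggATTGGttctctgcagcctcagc
Mtor, chr4:148448332-148448581, plus strand: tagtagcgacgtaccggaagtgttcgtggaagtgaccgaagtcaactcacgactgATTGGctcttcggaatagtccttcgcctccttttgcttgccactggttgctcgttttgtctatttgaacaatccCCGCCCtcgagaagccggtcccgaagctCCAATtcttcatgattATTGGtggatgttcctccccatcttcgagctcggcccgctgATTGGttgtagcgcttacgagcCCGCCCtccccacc
The Mycn promoter held 3 E2F matches, which overlap in part, and 0.855% of 21045 protein-coding promoters of the same length held any. Ccne1 carried 4 GC boxes, with a GC content of 76.0% and 34 CpG against medians of 55.6% and 10 over all promoters. An E-box, present in 6.7% of promoters, was found in that of Hif1a. The CCAAT box, present in 35.6% of promoters, occurred 4 times before the Mtor start. Before the 5 listed Nfe2l1 starts, from the outermost inwards, it occurred 4, 0, 5, 4 and 2 times. The runs before the starts with 4 (outermost) and 5 boxes are those shown, and the windows of the 3 inner starts overlap. No promoter of the 6 genes held the antioxidant response core, which 10.5% of promoters hold. These are matches of letters and say nothing of binding.

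All 10 genes carried H3K4me3 in both WT libraries, and each had fewer bases under H3K4me3 peaks in both KO libraries than in both WT libraries, when bases were counted over the gene plus 1 kb at each side. Across all genes with a peak in at least 1 library, 93.5% of 13276 showed the same order, so the shared direction does not set these 10 apart. The reverse order was seen in 0.0301% of genes and in 0 of the 10. The order held in 98.2% of the 12644 genes with a peak in both WT libraries. The log2 ratio of KO over WT covered bases, with 100 bp added to each mean, had a median of -1.69 over the 10 genes and ranged from -3.02 to -0.76. Over all genes with a peak its median was -1.32. When each library was scaled to its own covered bases, the median of all genes moved to 0.05 and that of the 10 to -0.25. On that scale 5 of 10 genes (Myc, Mycn, Ccne1, Hif1a and Nfe2l1) were lower in both KO libraries, where 27.5% of all genes were, and 1 (Mtor) was higher in both, where 35.3% of all genes were.

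**Figure D1:**
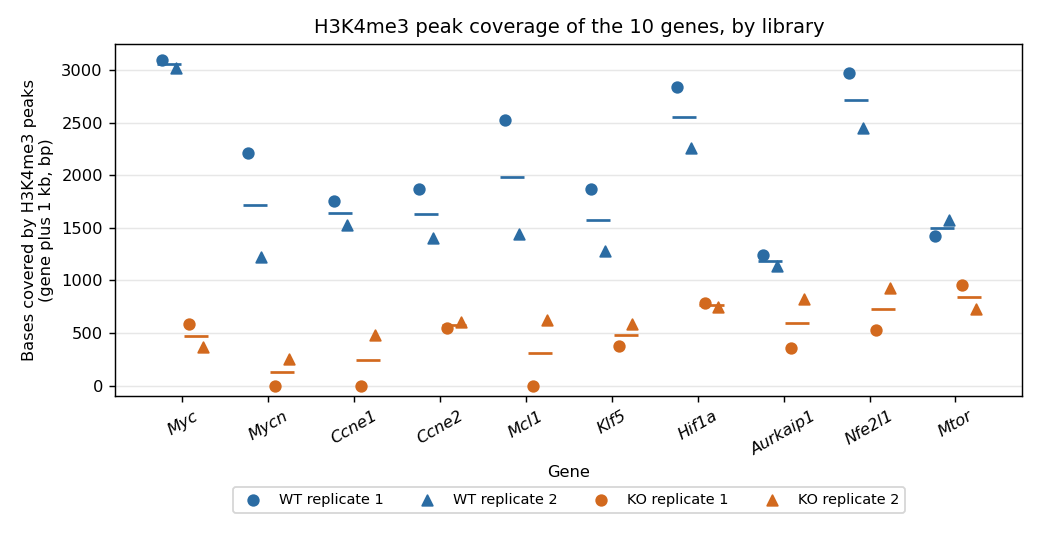
Bases covered by H3K4me3 peaks over each gene plus 1 kb (vertical axis, bp) in the 2 WT (blue) and 2 KO (orange) libraries, with circles for replicate 1, triangles for replicate 2 and a line at each group mean. Every KO point lies below both WT points of its gene before scaling to the library totals, and Mycn, Ccne1 and Mcl1 stand at 0 in KO replicate 1.

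A peak stood over 7 of the 10 genes in all 4 H3K4me3 libraries, where 68.1% of the 13276 genes had one, and 71.5% of those with a peak in both WT libraries. The other 3 genes, Mycn, Ccne1 and Mcl1, had a peak in every library but KO replicate 1, a pattern of 9.81% of the 12644 genes with a peak in both WT libraries. The reverse pattern, a peak missing from KO replicate 2 alone, was seen in 5.47% of those genes and in 0 of the 10. No member was WT-only (peaks in both WT and neither KO library), against 12.6% of genes. With KO replicate 2 left out, Mycn, Ccne1 and Mcl1 were WT-only, as were 21.9% of all genes. None was KO-only, as were 0.0% of all genes. The KO peaks lay within the ground covered in WT: for 9 of 10 genes every base under a KO peak was also under a WT peak, and for Hif1a 84.53% of the bases were, beside 93.8% of genes with all such bases inside. Merged over libraries, the 10 genes held 19 H3K4me3 sites: 8 in all 4 libraries, where 46.8% of all sites were, 4 WT-only, where 21.7% were, and 0 KO-only, where 0.056% were.

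Myc, which encodes the MYC transcription factor (chromosome 15, 61985341 to 61990361), had the widest coverage of the set. It carried 3095 and 3020 bases under H3K4me3 peaks in WT and 583 and 366 in KO, 15.5% of the WT mean. The WT libraries were close together and far from the KO libraries. Its WT coverage stood at the 96.3rd percentile of genes with H3K4me3 in both WT libraries, and its log2 ratio of -2.46 at the 18.0th. One broad WT peak, from 61985603 to 61988277 in replicate 1, was replaced in the KO lists by short peaks inside it: 344 and 239 bases long in replicate 1, and 366 in replicate 2. A second site at 61984771 to 61985190, just outside the listed gene, was WT-only.

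Mycn, which encodes N-MYC (chromosome 12, 12936093 to 12941836), had the lowest ratio of the 10 with all libraries, though not with every choice. Its H3K4me3 covered 2212 and 1227 bases in WT, 0 in KO replicate 1 and 248 in KO replicate 2, a log2 ratio of -3.02 at the 10.7th percentile. Without KO replicate 1 its ratio was -2.39 and that of Myc was lower, at -2.76. Without KO replicate 2 the ratio was -4.19 and that of Mcl1 was lower, at -4.38. Among peaks with a -log10 q of at least 10 it was -3.90 against -4.98 for Myc. In these latter comparisons no KO peak remained over either gene, so the ratios order the genes by WT coverage alone. In WT replicate 1 the main Mycn peak ran over the listed start, into the promoter printed above, and in WT replicate 2 it began 17 bases inside the gene. The KO replicate 2 peak lay 803 bases inside. Mycn was also the only one of the 10 with H3K4me1 over the gene plus 1 kb in both KO libraries and no WT library, where 2.75% of 12781 genes with any H3K4me1 peak there showed this. Those KO peaks, 12938751 to 12939129 in replicate 1 and 12939009 to 12939377 in replicate 2, overlap each other and an H3K4me3 peak that WT replicate 1 alone had at 12938624 to 12939276. Inside the WT H3K4me3 peaks of Mycn, H3K4me1 covered 0 and 0 bases in WT and 379 and 567 in KO. Of the 12644 genes with H3K4me3 in both WT libraries, 2.24% had H3K4me1 inside those peaks in both KO libraries and neither WT library, and 1.84% had the reverse, which 0 of the 10 did. In any library, H3K4me1 inside the WT H3K4me3 peaks was seen for 3 of the 10 genes, where 40.5% of genes had it. Besides Mycn these were Nfe2l1, with 391 bases in KO replicate 2 alone, and Mtor, with 187 in WT replicate 1 alone.

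The cyclin E genes differed from each other. Ccne1, which encodes cyclin E1 (chromosome 7, 38097984 to 38107490), had 1754 and 1526 bases under H3K4me3 in WT, 0 in KO replicate 1 and 482 in KO replicate 2, a log2 ratio of -2.35. Both WT libraries covered the listed start beside the GC-rich promoter printed above, while the edge of the KO replicate 2 peak stopped 13 bases inside the gene. A listed start covered in both WT and neither KO library was found for 2 of the 6 genes with a listed start, Ccne1 and Nfe2l1, and for 34.7% of 10175 such genes with a peak in both WT libraries. These were also the only 2 of the 6 with the start covered in both WT libraries, as 65.0% of genes had, and 0 of the 6 had it covered in both KO libraries, as 13.2% had. Ccne2, which encodes cyclin E2 (chromosome 4, 11190433 to 11204779), had a peak in all 4 libraries. It covered 1866 and 1404 bases in WT and 548 and 601 in KO, a log2 ratio of -1.36 that became 0.05 after scaling to the library totals. Its peaks also overlap the noncoding gene A630034I12Rik, so the mark cannot be assigned to one of them.

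Mcl1, the anti-apoptotic BCL2 relative (chromosome 3, 95656944 to 95663179), had 2524 and 1438 bases under H3K4me3 in WT, 0 in KO replicate 1 and 623 in KO replicate 2, a log2 ratio of -2.34. WT replicate 1 alone had a peak over the listed start, and the larger peak lay downstream in the gene in WT replicates 1 and 2, 659 and 764 bases from the start. The KO replicate 2 peak lay 1407 bases from it. Klf5, a Krüppel-like transcription factor (chromosome 14, 99298691 to 99313412), had 1871 and 1282 bases in WT and 379 and 583 in KO, with 1 site in all 4 libraries. The groups did not overlap, and the ratio of -1.53 stood at percentile 40.1 of genes with H3K4me3 in both WT libraries.

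Hif1a, which encodes the oxygen-regulated subunit of HIF-1 (chromosome 12, 73901324 to 73947554), had 2844 and 2258 bases in WT and 789 and 743 in KO, a log2 ratio of -1.61. The ratio turned to 1.48 when every list was cut to the same length of 10397 peaks. That cut takes many more peaks from the WT lists, of 17460 and 16078 peaks, than from the KO lists, of 10397 and 11281. The turn thus does not show wider coverage in KO. Of the 3 H3K4me3 sites of Hif1a, 1 was held by all 4 libraries and lay 844 to 1170 bases inside the gene from the listed start. The others, at 73901428 to 73902278 and 73910727 to 73911463, were WT-only, 2 of the 4 such sites over the 10 genes (Myc and Nfe2l1 had the others). Ranked by -log10 q within their own lists, the peaks of the shared site stood at percentiles 29.2 and 21.2 in WT, 52.3 in KO replicate 1 and 19.6 in KO replicate 2. The KO libraries thus lay on opposite sides of the WT libraries, and ranks from lists of different lengths show no change. H3K4me1 peaks over the gene plus 1 kb were found in at least 1 library for 8 of the 10 genes, all but Ccne1 and Ccne2, against 59.1% of all genes and 81.6% of those with H3K4me3 in both WT libraries. None of the 8 was WT-only for H3K4me1, where 4.69% were. Hif1a and Mtor were the 2 of 8 genes with H3K4me1 over the gene plus 1 kb in all 4 libraries, which 51.8% of genes with any such peak had. In Hif1a, an H3K4me1 site merged over all 4 libraries, 73905925 to 73907514, ended before the listed start, on the opposite side of it from the shared H3K4me3 site. Both WT peaks of that H3K4me1 site ended at 73906937, and the KO replicate 2 peak, 73907244 to 73907503, overlapped neither. Only the KO replicate 1 peak, 73906316 to 73907514, joined them.

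Nfe2l1, which encodes the transcription factor NRF1 that restores proteasome genes (chromosome 11, 96817414 to 96829968), has 5 listed starts in 2 clusters. H3K4me3 covered 2976 and 2454 bases in WT and 530 and 924 in KO, a log2 ratio of -1.77 that turned to 1.40 at equal list length. As for Hif1a, the cut takes more peaks from the WT lists, so the turn does not show wider coverage in KO. The outer cluster held a site in all 4 libraries, at 96828311 to 96829953. The site at the inner cluster, 96822936 to 96823912, was WT-only and ended within 19 bases of the nearest inner start in WT replicate 2 and 90 in WT replicate 1. Its WT pileups, the authors' number of fragments at the summit, were 81 and 46, beside 96 and 42 at the outer site, which the KO lists did hold. Upstream of the outermost start, 4 peaks began at the same base, 96830196: H3K4me3 in WT replicate 1, WT replicate 2 and KO replicate 2, and H3K4me1 in KO replicate 2.

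**Figure D2:**
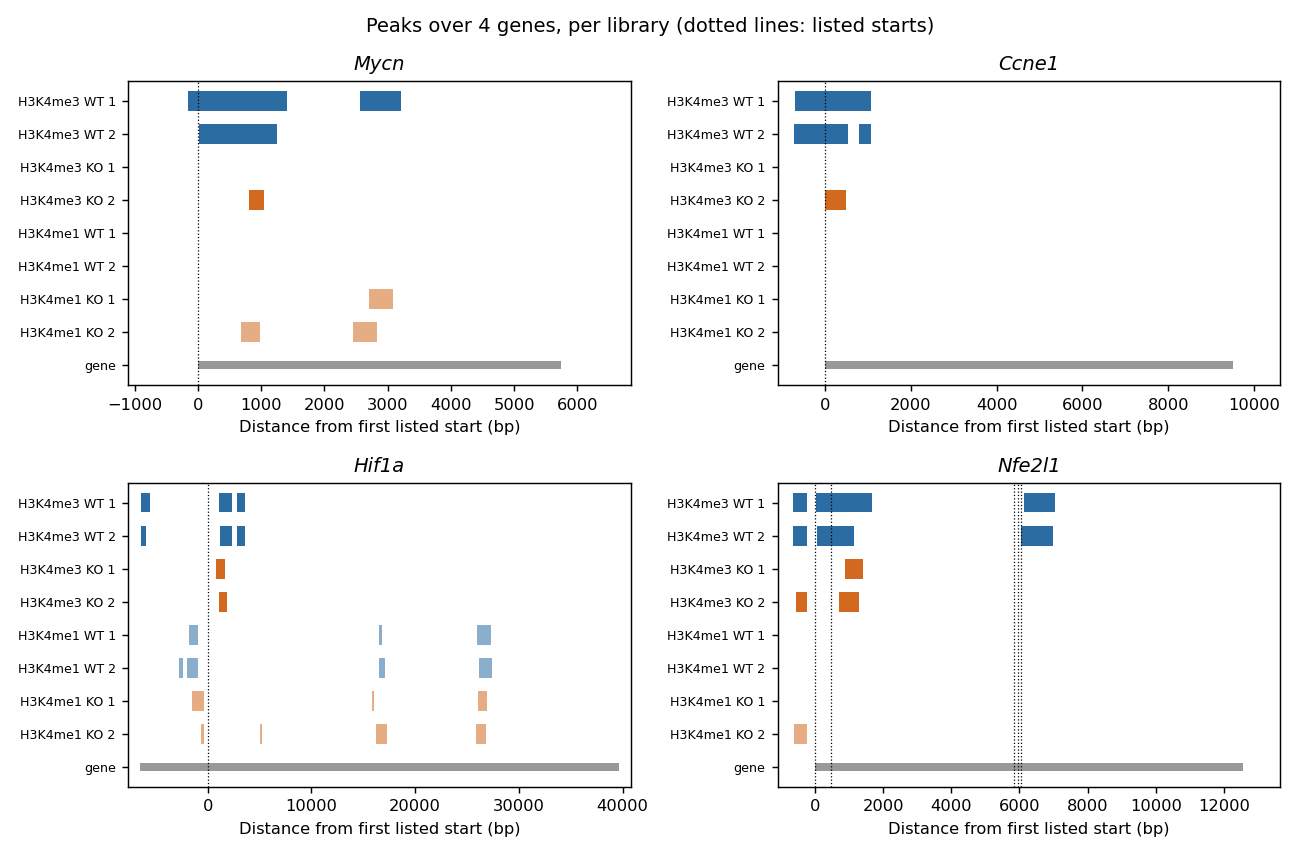
Peaks of each H3K4me3 (dark) and H3K4me1 (light) library over 4 genes, WT in blue and KO in orange, against distance from the first listed start in the direction of transcription (bp), with dotted lines at listed starts and a grey bar for the gene. No KO H3K4me3 peak of these genes covers a listed start, the inner start cluster of Nfe2l1 has peaks in WT only, and Mycn has H3K4me1 in KO only.

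Mtor, which encodes the mTOR kinase (chromosome 4, 148448582 to 148557685), had the ratio closest to 0 with all libraries, a place that Aurkaip1 took without KO replicate 1 (-0.48 against -0.95 for Mtor). It had 1424 and 1576 bases in WT and 958 and 728 in KO, a log2 ratio of -0.76 at the 79.0th percentile, and after scaling to the library totals the ratio was 0.67 with both KO libraries above both WT. On that scale Ccne2 (0.05), Klf5 (-0.15) and Hif1a (-0.16) were closer to 0. Those counts join 2 sites. The site at the Mtor start, 148448586 to 148449677, was present in all 4 libraries with peaks of 989 and 1087 bases in WT and 752 and 522 in KO. The second site, 148558197 to 148559385, lies past the end of Mtor and over Exosc10, a gene of the RNA exosome. In every library the peak at the Mtor start began 4 to 13 bases inside the gene, so none covered the start base. A WT-only H3K4me1 site lay just downstream, at 148449491 to 148450080, 1 of 21 H3K4me1 sites over the 10 genes, where 6.63% of 94400 merged H3K4me1 sites were WT-only. Of the same 21 sites, 1 (in Mycn) was KO-only, where 5.37% were, and 3 were in all 4 libraries, where 28.7% were.

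Aurkaip1 (chromosome 4, 155831269 to 155833098) is the shortest gene of the set and lies among 9 other protein-coding genes within 50 kb. Its H3K4me3 covered 1239 and 1133 bases in WT and 358 and 825 in KO, a log2 ratio of -0.90 that became 0.46 after scaling to the library totals. The KO libraries differed from each other here more than the WT libraries did. Within its own list the single peak stood at percentiles 69.2 and 77.4 of -log10 q in WT, 57.1 in KO replicate 1 and 26.9 in KO replicate 2.

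**Figure D3:**
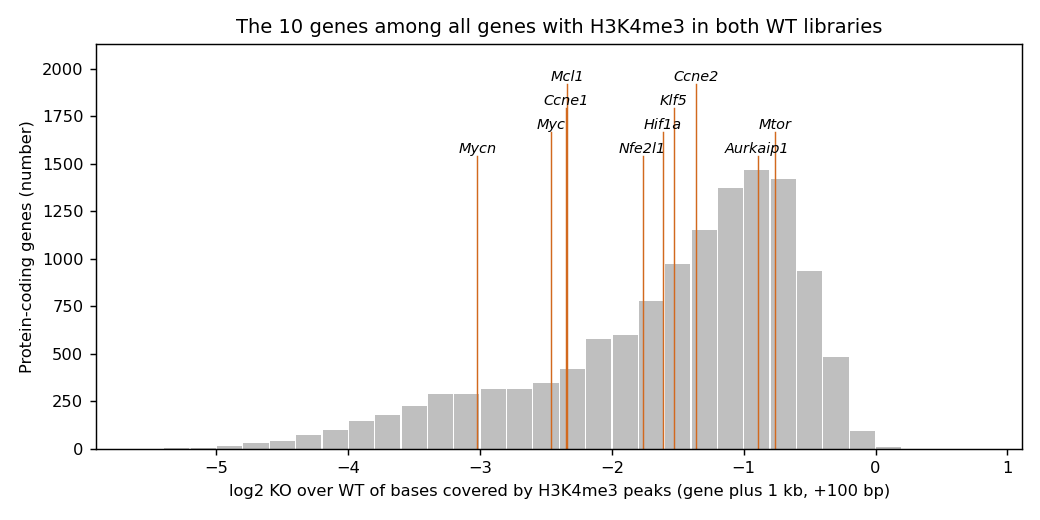
Number of protein-coding genes (vertical axis) by log2 ratio of KO over WT bases covered by H3K4me3 peaks over the gene plus 1 kb, with 100 bp added (horizontal axis), for the 12644 genes with a peak in both WT libraries, and orange lines at the 10 genes. The 10 genes are spread from -3.02 (Mycn) to -0.76 (Mtor) within the range of all genes, on the scale that is not corrected for the library totals.

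H3K4me1 within 50 kb showed no common direction. The number of peaks was lower in both KO than in both WT libraries for 0 of the 10 genes, where 19.5% of 18420 genes were, and higher in both for 1, Mycn, where 8.51% were. In covered bases 3 genes (Myc, Mcl1 and Hif1a) were lower in both KO libraries, against 34.3% of genes, and 2 (Mycn and Aurkaip1) were higher, against 12.1%. The median log2 ratio of bases was -0.57 over the 10 genes and -0.23 over all genes. Of 74 merged sites within 50 kb of the 10 genes, 15 were held by all 4 libraries and 37 by 1 library, 6 were WT-only and 2 KO-only. Over all merged H3K4me1 sites the shares were 28.7% in all 4 libraries, 36.6% in 1 library, 6.63% WT-only and 5.37% KO-only.

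Mcl1 had the most H3K4me1 peaks around it, 13 and 8 in WT against 10 and 4 in KO, covering 7806, 5274, 4634 and 2837 bases in that order of libraries. The peak numbers of the groups overlapped and the bases did not. Hif1a followed with 8 and 7 in WT against 8 and 10 in KO, and with bases that differed little, 6060 and 6144 in WT and 5980 and 5718 in KO. Its KO-only site, at 73882675 to 73883183, lay 18.1 kb outside the gene. A peak of WT replicate 1 alone, 73882256 to 73882640, ended just before it, so the label turns on the peak edges.

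Around Mycn, 2 and 2 in WT stood against 3 and 5 in KO, and covered bases were 2153 and 2229 against 2446 and 2891. Mycn kept 2 sites held by all 4 libraries, 30.4 and 40.7 kb from the gene, so its higher KO count came from other sites. Myc had 6 and 2 in WT against 2 and 2 in KO, covering 3277 and 1696 against 1033 and 771 bases. The high count was that of WT replicate 1 alone, and without it the peak numbers of Myc were equal.

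Ccne1 had 4 and 3 in WT, 3 in KO replicate 1 and 0 in KO replicate 2. Its WT-only sites, 26.7 and 36.5 kb from the gene, were 2 of the 6 such sites around the set, and Mcl1 and Mtor had the others, 2 each. The farther Ccne1 site, 38060868 to 38061515, ended just before a KO replicate 1 peak at 38061529 to 38061862. The -log10 q was 5.04 and 3.09 in WT at the site and 5.52 for that KO peak, so the WT-only label there turns on the peak edges. Ccne2 had 1 and 2 in WT against 2 and 1 in KO. Klf5 had 2 peaks in WT replicate 1 and 0 in the other 3 libraries, the fewest of the set. Its H3K4me1 result thus rests on 1 library.

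Around Aurkaip1 there were 3 and 1 in WT against 3 and 5 in KO, with 1343 and 437 bases against 1623 and 2450. Nfe2l1 had 4 and 4 in WT against 4 and 6 in KO. Mtor had 7 and 3 in WT against 3 and 3 in KO, so that, as for Myc, only WT replicate 1 stood apart. With WT replicate 2 left out, 5 of the 10 genes were lower in KO by peak number, as were 38.6% of all genes. With KO replicate 1 left out, 4 were higher, as were 14.8% of all genes. These counts turn on single libraries.

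**Figure D4:**
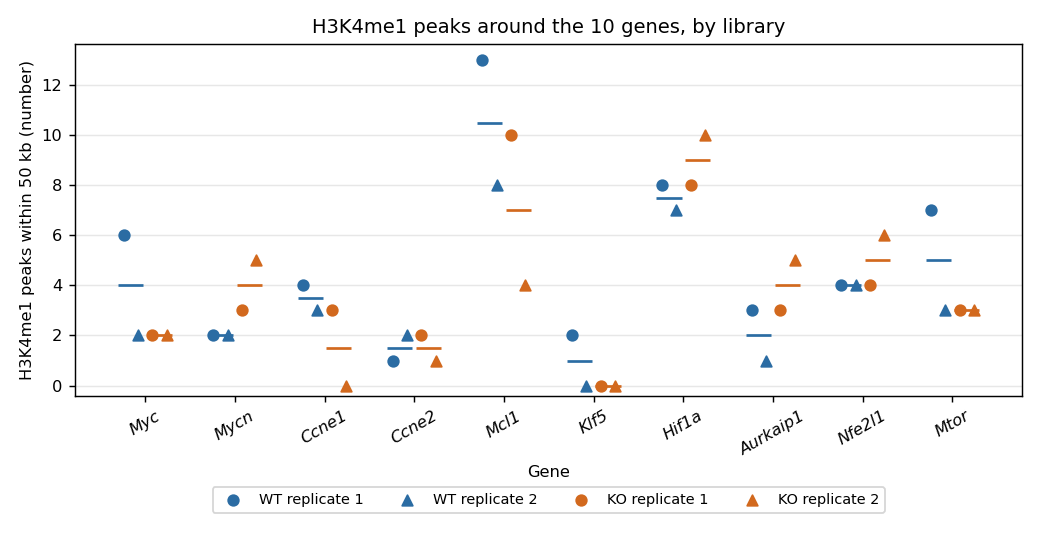
Number of H3K4me1 peaks within 50 kb of each gene (vertical axis) in the 2 WT (blue) and 2 KO (orange) libraries, with circles for replicate 1, triangles for replicate 2 and a line at each group mean. The KO points lie above the WT points only at Mycn, and at the other 9 genes the groups overlap or touch.

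MLL4 peaks were found near 1 of the 10 genes, Mcl1, and near 0.675% of all genes within 50 kb. That peak, at 95625017 to 95625253, was in the list of WT replicate 2 alone, 31.7 kb from Mcl1. It lies at the Ensa gene and inside the WT-only H3K4me1 site at 95624527 to 95625363. The same peak also lies inside an H3K4me3 site held by all 4 libraries, 95624579 to 95626015. No MLL4 peak was called within 50 kb of the other 9 genes, in lists of 40 to 69 peaks, which does not show that MLL4 was absent there.

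Genes around Fbxw7 and around the substrates were read from lists. All 12 genes of the ligase machinery (the SCF subunits, their NEDD8 and CAND1 regulators, the kinases that prime degrons and related enzymes) had an H3K4me3 peak in all 4 libraries, with a median log2 ratio of -1.17. Over all genes with a peak, 68.1% had one in all 4 libraries and the median was -1.32. Skp1, the adaptor that holds the F-box, covered 2101 and 1948 bases in WT and 811 and 576 in KO. For the scaffold Cul1 these were 1983 and 1550 against 692 and 671, and for the RING subunit Rbx1 2068 and 1781 against 1342 and 628.

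Of 20 partners and regulators of the substrates, 20 had a peak, 12 of them in all 4 libraries, with a median log2 ratio of -1.97, beside 68.1% and -1.32 over all genes. These ratios are not scaled to the library totals. In this list 2 of 20 genes were WT-only, beside 12.6% of all genes. The WT-only genes were Zbtb17, which encodes the MYC partner MIZ1, with 1591 and 1393 bases in WT and 0 in both KO libraries, and Cdkn1b, which encodes the CDK2 inhibitor p27, with 3201 and 2103 bases in WT and 0 in both KO libraries. Max, the obligate partner of MYC, kept a peak in every library, with 2262 and 1874 bases in WT and 336 and 576 in KO. For Cdkn1a, which encodes the inhibitor p21, the peak was missing from KO replicate 1 only. Aurka, the gene of the kinase itself, covered 1741 and 1684 bases in WT and 863 and 1198 in KO.

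For each of the 10 genes, the most similar other gene was taken as the one at the smallest Euclidean distance over the 8 histone libraries, on log2 of covered bases plus 100 bp. The closest pairs were Hif1a with Spag9, at a distance of 0.40, Mycn with H1f3 at 0.41 and Klf5 with Tusc1 at 0.46. H1f3 had 2130 and 1625 bases of H3K4me3 in WT, 0 in KO replicate 1 and 251 in KO replicate 2. Its likeness to Mycn follows from the choice by these same values. The others were Mcl1 with Cyria at 0.51, Nfe2l1 with H2bc6 at 0.59, Mtor with Casp2 at 0.61, Ccne2 with Mrpl41 at 0.74, Aurkaip1 with Elac2 at 0.84, Ccne1 with Zfp384 at 0.98 and Myc with Mettl9 at 0.99. Ccne1 and Myc had the least similar neighbours of the set by this measure.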

How the data were processed

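Cut & Run libraries of MLL4, H3K4me1 and H3K4me3 from WT and fbxw7 KO MEF (2 per group, 12 in all) were used, with groups and replicate numbers from the sample titles. Per the file headers, the authors ran MACS2 2.1.0.20150731 separately on every library, for narrow peaks in paired-end mode, at a q cutoff of 0.01, with a local background of 10000 bp and no control. The headers allow 2 duplicate fragments per position in the H3K4me1 lists and in H3K4me3 WT replicate 1, and 1 in the others. Each deposited list gives a pileup signal, a fold enrichment ratio and -log10 values of p and q, which are the authors' values and were used only to describe or filter peaks within a list. The submitters' processing notes give the build mm10 and name, without roles, HOMER 4.10, deepTools, MACS2, SAMtools 1.5, Bowtie2 and bedtools.

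Gene positions and promoters came from RefSeq GRCm38.p6, which shares the coordinates of mm10. The table gives no strand or exons, so strands and starts were known for the 6 genes with a listed promoter. Peaks on chromosomes 1 to 19 and X were counted with Python 3.11.15, numpy 2.4.6 and pandas 2.3.3. A peak counted when at least 1 bp overlapped the gene plus 1 kb (H3K4me3) or plus 50 kb (H3K4me1, MLL4). Ratios are log2 of KO over WT mean covered bases, with 100 bp added. Ratios of peak numbers had 1 peak added instead. Counting was tested on simulated peaks, with 200 of 200 genes recovered. The depths were 4435103 to 5838305 fragments for MLL4 and 11604131 to 13627038 for H3K4me1, beside those given for H3K4me3 in the results. Genotypes were compared by whether the 2 KO libraries lay outside the range of the 2 WT libraries, and by exact permutation over 6 assignments. The rule for the 10 genes uses no measured value, but the genes and lists were chosen with earlier results of these data known. All 10 genes are named. From 2 lists of pathway genes, those WT-only or KO-only are named and up to 4 others per list, in list order, and Aurka was added after its values were seen. The alternatives tried were equal list length, stricter q, other windows, summits, scaling, chromosomes left out, replicate blocks and each library left out.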

Additional observations from a re-analysis of the deposited data

How the results depend on the processing

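With 2 libraries per group and peaks called per library, each value depends on which peaks passed. The number of the 10 genes with H3K4me3 in all 4 libraries was 7 and became 3 at equal list length, 0 at a -log10 q of at least 10 and 4 with chromosomes 4, 10, 16 and 19 left out, and 7 to 10 with one library left out. WT-only genes went from 0 to 9 at that q and to 1 around starts or gene ends, and spanned 0 to 3 with one library left out. The highest -log10 q of a KO H3K4me3 peak over the 10 genes was 7.97, so none passed that q. The share of all genes was not computed at equal list length, at that q, around starts or gene ends, or with the chromosomes left out. The counts at those settings thus do not set the 10 genes apart. The count lower in both KO libraries went from 10 to 5 at equal list length and 5 as a share of the library total, and the count higher went from 0 to 2 and 1. The median log2 ratio of H3K4me3 went from -1.69 to -3.96 at that q, -0.25 as a share and -2.34 with the chromosomes left out. It spanned -1.98 to -1.49 with one library left out. Direction reversed for Ccne2 (0.048), Aurkaip1 (0.46) and Mtor (0.67) as a share, for Hif1a (1.48) and Nfe2l1 (1.40) at equal list length, and for Hif1a (0.84) around listed starts. Equal list length takes more peaks from the WT lists than from the KO lists. The 0.84 of Hif1a rests on 1 peak edge, that of KO replicate 1, 844 bases from the start. In the other libraries the nearest H3K4me3 peak was 1081 to 1170 bases away, just outside the 1 kb window.

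For H3K4me1 peaks within 50 kb, the count lower in both KO libraries went from 0 to 3 at a -log10 q of at least 5, to 1 within 100 kb, 1 per 10000 peaks and 3 in bases, and 0 to 5 with one library left out. The count higher went from 1 to 0 at that q, 2 within 100 kb, 3 per 10000 peaks and 2 in bases, and 1 to 4 with one library left out. The median log2 ratio of peak numbers went from -0.26 to 0.0 at equal list length, 0.058 at that q, -0.41 within 25 kb, -0.12 within 100 kb, -0.46 in bases and -0.52 with the chromosomes left out, and spanned -0.45 to 0.0 with one library left out. For the ratio in bases, covered bases were first divided by the mean bases per peak and 1 peak was added. The -0.46 thus differs from the -0.57 given in the results, where 100 bp was added. Direction reversed for Mcl1 (0.12) at that q, Hif1a (-0.056) in bases and Nfe2l1 (-0.23) within 100 kb. The cause of these changes was not tested, beyond the fewer peaks, libraries or genes that an alternative leaves.

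Replicate numbers did not pair the libraries: deviations of same-numbered libraries correlated at 0.033 (H3K4me3) and 0.0054 (H3K4me1) over genes. With replicate number as a block, the H3K4me3 counts were 10 lower and 0 higher with a median of -1.70, and the H3K4me1 counts were 2 lower and 1 higher with a median of -0.25. Shares of all genes were not computed with that block.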

Other observations

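Some member peaks shared an edge to the base between libraries. Of 18 H3K4me3 peaks of WT replicate 2 over the 10 genes, 4 had a start or end at the same base as a peak of WT replicate 1, where 8.72% of all its peaks did. Examples are the Klf5 peaks, both starting at 99298272, and the broad Myc peaks, both ending at 61988277. In the KO libraries 1 of 13 H3K4me3 peaks of replicate 2 did, where 6.34% of all its peaks did. The part of the sequence or of read alignment in this was not tested.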
